A study of Mus musculus with 4 samples.

Results

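The nuclear genes for the subunits of the oxidative phosphorylation machinery were examined in irradiated intestine with and without CREPT in the epithelium. Members were the genes whose symbol starts as those of the subunits do (Nduf with a subunit letter and number, Sdha to Sdhd, Uqcr, Cox4 to Cox8 and Atp5) and whose level averaged at least 1 FPKM over the libraries. FPKM is the number of fragments of a gene relative to its transcript length and to all mapped fragments. Of 17505 genes in the table, 82 matched by symbol and 79 also passed the level, which were 35 of complex I, 4 of complex II, 8 of complex III, 15 of complex IV and 17 of complex V. The genes carried by the mitochondrial genome were not analysed here, and Cyc1 and Ndufab1 fall outside the symbols used.

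The libraries were 2 from Vil-CREPT-KO mice and 2 from WT mice, all C57BL/6, all given a single abdominal dose of 10 Gy of X-rays, with the intestine taken 3 days later. Mice of both sexes aged 6 to 8 weeks were used in the study. In Vil-CREPT-KO mice exon 3 of Rprd1b, the gene for the RNA polymerase II binding protein CREPT, is floxed and villin-driven Cre deletes it in epithelial cells only, so the other cells of the intestine keep it. The labels call the controls wild type and do not say whether they carried the floxed allele or Cre, and they name the tissue as intestine with no segment. The study calls the replicates biological and a legend of its supplement counts as many mice per genotype as there are libraries, so the libraries of a group were taken as separate mice; the labels name no animals.

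Oxidative phosphorylation takes place in the inner membrane of the mitochondrion. Complex I (NADH dehydrogenase) and complex II (succinate dehydrogenase) pass electrons to ubiquinone, complex III (cytochrome bc1) passes them on to cytochrome c, and complex IV (cytochrome c oxidase) passes them to oxygen. The proton gradient built on the way drives complex V (ATP synthase). The differentiated cells of the intestinal villus are rich in mitochondria and use this ATP for nutrient uptake, while the stem cells of the crypt also rely on mitochondrial activity.

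Across the whole table, Rprd1b had 4.01 and 3.93 FPKM in Vil-CREPT-KO, against 5.99 and 7.19 FPKM in WT. Both Vil-CREPT-KO libraries lay below both WT libraries, with a log2 fold change of -0.61 ± 0.15 (SE) and an adjusted p of 0.129 by limma. These values are for the whole gene, so the loss of exon 3 alone cannot be read from them. By staining, the study reported complete loss of CREPT from the epithelial cells. Pan-epithelial markers such as Epcam and Krt8 summed to 11150 and 8774 FPKM in Vil-CREPT-KO, against 7269 and 7267 FPKM in WT, so the tissue was rich in epithelium. Of 8 such markers, 6 stood higher in both Vil-CREPT-KO libraries than in both WT libraries (31.9% of all tested genes did). Vil1 alone stood lower in both (22.1% of all tested genes did), with 338 and 367 FPKM in Vil-CREPT-KO, against 501 and 454 FPKM in WT. Markers of other regions set the groups apart. The 11 mucous cell genes of stomach and Brunner's glands summed to 27.4 and 114 FPKM in Vil-CREPT-KO and to 39090 and 42420 FPKM in WT. All 11 were called lower, against 1.69% of all tested genes. They held 6.91% and 7.39% of the summed FPKM in the WT libraries, which lowers every other value there. The pancreatic acinar markers summed to 3.34 and 4731 FPKM in Vil-CREPT-KO and to 9683 and 2486 FPKM in WT, and the duodenal markers to 218 and 774 against 980 and 959 FPKM. Segment and genotype cannot be told apart for these samples, and in bulk tissue fewer cells of a type cannot be told apart from less RNA per cell.

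The members were abundant transcripts and together took 3.01% and 3.05% of all FPKM in Vil-CREPT-KO, against 2.58% and 3.13% in WT. Levels in FPKM are per length and can be set side by side between genes. The median member averaged 160 FPKM, and the complexes ranked in levels from complex I (median member 87.0 FPKM) through complex II (159 FPKM) and complex III (206 FPKM) to complex V (301 FPKM) and complex IV (334 FPKM). Complexes I, II and III kept this order of medians in each of the 4 libraries, whereas complexes IV and V lay close together. For complex IV the median member had 402 and 358 FPKM in Vil-CREPT-KO, compared with 287 and 328 FPKM in WT. For complex V it had 328 and 309 FPKM in Vil-CREPT-KO, with 262 and 328 FPKM in WT, so that in WT 2 the medians of complexes IV and V were almost equal. For complex I it had 92.1 and 86.9 FPKM in Vil-CREPT-KO, against 73.7 and 98.3 FPKM in WT.

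**Figure D1:**
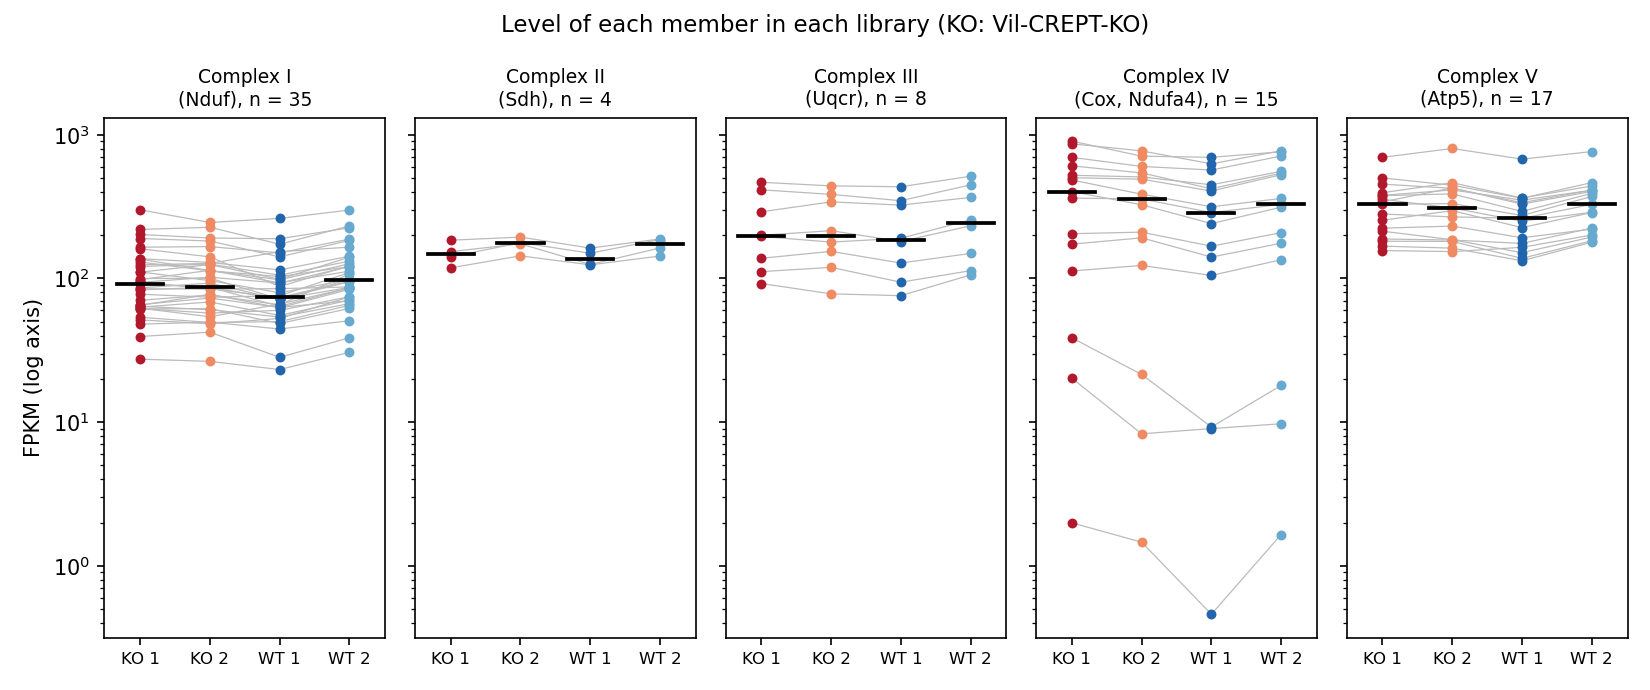
Level of each of the 79 members in FPKM (log axis) in the 2 Vil-CREPT-KO libraries (KO 1, KO 2) and the 2 WT libraries, by respiratory complex. Each point is a gene, grey lines join its values, and black bars are medians. Most members run in parallel and dip in WT 1, and only Cox7a1, Cox6b2 and Ndufa4l2 in complex IV lie below 23 FPKM in a library.

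Within a complex the subunits, which are present in fixed numbers in the assembled enzyme, differed widely in transcript level. In complex I the levels ran between those of Ndufa11 and Ndufa3, both accessory subunits of the membrane arm. Ndufa3 had 300 and 245 FPKM in Vil-CREPT-KO, against 262 and 299 FPKM in WT. Ndufa11 had 27.4 and 26.5 FPKM in Vil-CREPT-KO, compared with 23.2 and 30.6 FPKM in WT, so that the ratio of the 2 genes was 10.9 and 9.26 in Vil-CREPT-KO, with 11.3 and 9.77 in WT. In complex V, Atp5b, the catalytic beta subunit, had 697 and 803 FPKM in Vil-CREPT-KO, against 677 and 764 FPKM in WT. Its partner in the catalytic head, the alpha subunit Atp5a1, had 379 and 413 FPKM in Vil-CREPT-KO, compared with 350 and 411 FPKM in WT. The ratio of Atp5b to Atp5a1 stayed between 1.84 and 1.94 over the 4 libraries. Across the 79 members, the log2 levels of any pair of libraries had a Pearson r between 0.978 and 0.996, highest between WT 1 and WT 2, as a description over genes that share their libraries.

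Nuclear respiratory factor 1 (NRF1) and the ETS family factor GABP are known regulators of many of these genes, and the letters of their motifs were searched for in the 250 bases before the gene starts given by RefSeq. Sequences were there for 66 of the 79 members. The NRF1 letters GCGCATGC, on either strand, stood in 8 of these 66 members (12.1%) and in 3.32% of 17492 protein-coding genes. The ETS letters CCGGAAG, on either strand, stood in 12 members (18.2%) and in 10.2% of protein-coding genes. Both counts include Cox6a1 and Atp5l, and 18 members had one or the other. The letters TATAAA, on either strand, stood in 6 members (9.09%) and in 13.7% of protein-coding genes. Stretches that hold the NRF1 letters are shown for 5 of these 8 members, from 4 complexes. These 5 were picked with their values known, so they do not stand for all members with the letters. Capitals mark the NRF1 letters, all sequences are RefSeq GRCm38.p6, 5′ to 3′ on the strand of the gene:
Ndufa6: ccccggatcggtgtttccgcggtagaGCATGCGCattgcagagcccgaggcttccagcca
Ndufa8: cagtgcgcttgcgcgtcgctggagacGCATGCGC
Sdhb: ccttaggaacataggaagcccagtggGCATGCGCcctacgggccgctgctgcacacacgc
Cox6a1: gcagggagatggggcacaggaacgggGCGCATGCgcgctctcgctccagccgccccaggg
Atp5k: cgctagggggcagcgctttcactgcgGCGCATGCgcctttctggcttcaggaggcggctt

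These stretches lie at chr15:82354341-82354400 on the minus strand for Ndufa6, chr2:36049339-36049372 on the minus strand for Ndufa8, chr4:140961191-140961250 on the plus strand for Sdhb, chr5:115349087-115349146 on the minus strand for Cox6a1 and chr5:108434416-108434475 on the minus strand for Atp5k. The first NRF1 letter was 83 bases before the start of Ndufa6, 8 before that of Ndufa8, 54 before that of Sdhb, 162 before that of Cox6a1 and 50 before that of Atp5k. Of these genes, Ndufa8 stood higher in both Vil-CREPT-KO libraries than in both WT libraries (31.9% of all tested genes did). Ndufa6 and Atp5k stood lower (22.1% of all tested genes did), and Sdhb and Cox6a1 overlapped. None of these genes was called. The groups also overlapped for the other members with the NRF1 letters, whose stretches are not shown. Values of the genes shown follow with those of their complexes. A match is a description of the letters and not of binding.

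The main comparison asked whether loss of CREPT from the epithelium came with other levels of these transcripts in the regenerating intestine. Levels were compared as log2(FPKM + 1) with limma over 11621 genes, where calls needed an adjusted p below 0.05 with more than 1 log2 unit of difference, Vil-CREPT-KO relative to WT. None of the 79 members was called, 0 higher, where 0.387% of all tested genes were called higher, and 0 lower, where 1.69% were called lower. At an unadjusted p under 0.05 there was 1 member, Cox7a1 (1.27%), against 20.2% of all tested genes. The members' log2 fold changes had a median of 0.07, beside 0.06 for all tested genes, and ran between -0.38 for Ndufa2 and 1.10 for Cox7a1, with adjusted p-values between 0.227 and 0.995. For 75 members (94.9%) the 95% interval of the log2 fold change lay within 1 unit of 0, which held for 76.6% of all tested genes. The other 4 included Cox7a1, Cox6b2 and Ndufa4l2 of complex IV. The median SE of a member was 0.20 on the log2 scale.

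**Figure D2:**
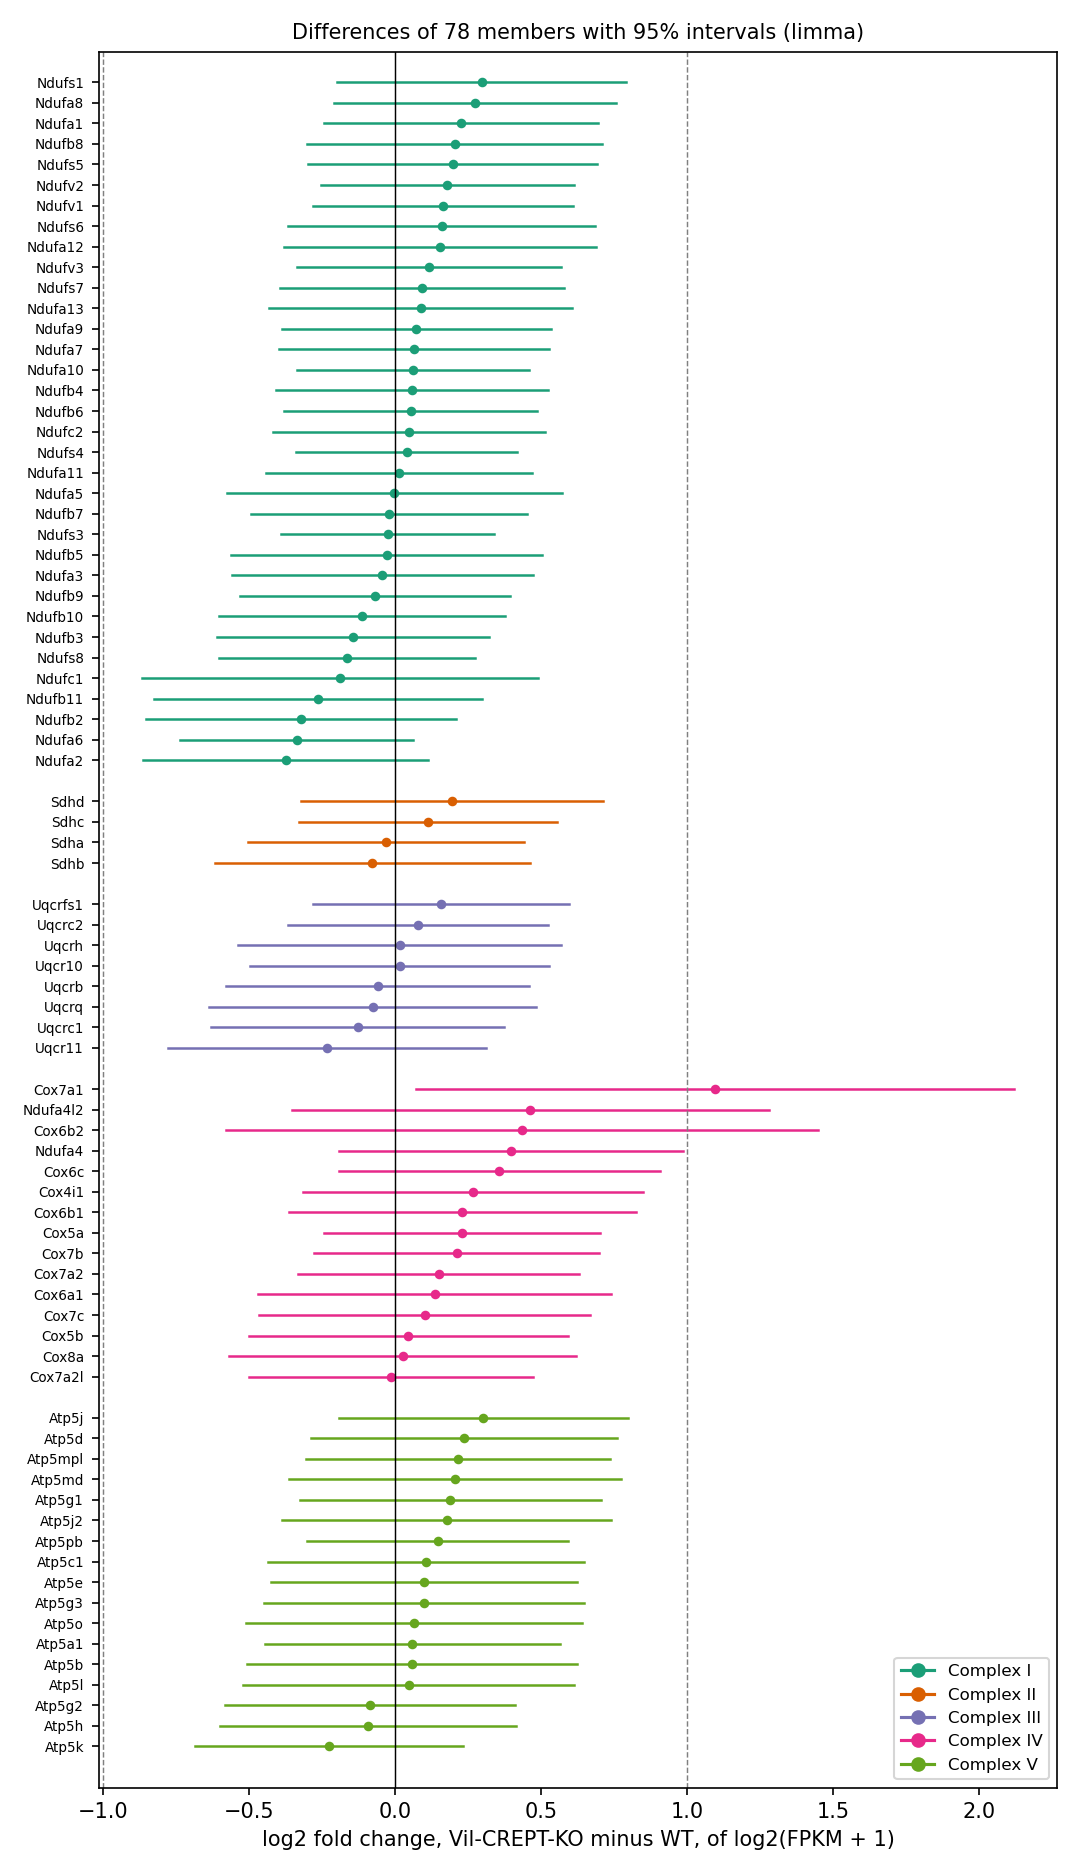
Log2 fold change of 78 of the 79 members (Vil-CREPT-KO minus WT, on the log2(FPKM + 1) scale) with its 95% interval from limma, by complex; dashed lines stand at -1 and 1. The points lie on both sides of 0 in complexes I, II and III and mostly above 0 in complexes IV and V. The interval of Cox7a1 alone leaves out 0.

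The groups overlapped for 63 of the 79 members. Both Vil-CREPT-KO libraries lay above both WT libraries for 11 members (13.9%), which held for 31.9% of all tested genes. These included Ndufa8 and Ndufs1 of complex I, Cox4i1, Cox5a, Cox6c, Cox7a1 and Ndufa4 of complex IV, and Atp5d, Atp5j and Atp5pb of complex V. Both lay below both WT libraries for 5 members (6.33%), which held for 22.1% of all tested genes, and these were Ndufa2, Ndufa6, Ndufb2, Ndufs3 and Atp5k. Both shares lay below those of the whole table. These 16 members were singled out after their values were seen.

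The members also differed between the 2 WT libraries. WT 2 was above WT 1 for 79 of 79 members, against 68.6% of all tested genes, by a median of 0.32 on the log2 scale (0.04 to 0.89), beside 0.12 for all tested genes. WT 1 was the lowest of the 4 libraries for 65 members (82.3%), against 40.9% of all tested genes, and WT 2 the highest for 41 (51.9%), against 28.3%. The Vil-CREPT-KO libraries differed less, with Vil-CREPT-KO 1 above Vil-CREPT-KO 2 for 43 members and a median difference of 0.02. For 69 of the 79 members the difference between the group means was smaller than that between WT 2 and WT 1. The exceptions in complex I included Ndufa2 and Ndufa6. The pancreatic acinar markers also differed between the WT libraries (9683 FPKM in WT 1 and 2486 FPKM in WT 2), as did smooth muscle markers (685 and 1050 FPKM). Fibroblast markers (135 and 235 FPKM), endothelial markers (7.72 and 13.3 FPKM) and enteric neuron and glia markers (7.84 and 19.3 FPKM) differed too. The pan-epithelial sums were nearly equal (7269 and 7267 FPKM). The part of any of these cell types in the members' difference was not tested.

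The direction of the members as a group rested on the WT library used and on the scaling. Their median log2 fold change was -0.07 without WT 1, where that of all tested genes was -0.0036, and 0.23 without WT 2, where that of all tested genes was 0.12. Rescaling each library without the 11 mucous cell genes gave -0.04 for the members and -0.04 for all tested genes. The split of members with a log2 fold change above and below 0 was 55 to 24 as tested and 32 to 47 after that rescaling.

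**Figure D3:**
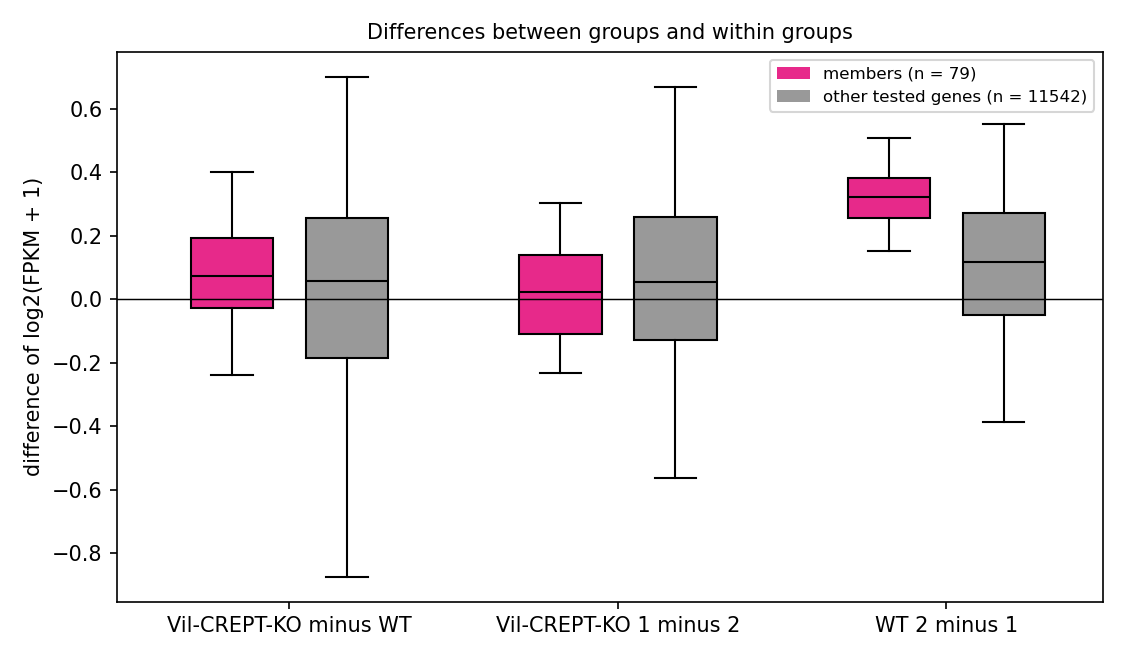
Differences of log2(FPKM + 1) between the groups, between the Vil-CREPT-KO libraries and between the WT libraries, for the 79 members and the 11542 other tested genes. Boxes span the 25th to 75th percentile with the median, and whiskers the 5th to 95th percentile; the members' box for WT 2 minus WT 1 lies wholly above 0 around a median of 0.32, and their box for the groups spans 0.

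In complex I, 3 of 35 members stood higher without overlap (8.57%, against 31.9% of all tested genes) and 4 lower (11.4%, against 22.1%), and the median log2 fold change was 0.05. Ndufs1, the core subunit that carries several iron-sulfur clusters, had 39.4 and 42.3 FPKM in Vil-CREPT-KO, with 28.3 and 38.7 FPKM in WT. Its WT libraries differed by more than the group means did, and the log2 fold change was 0.30 ± 0.19 (SE). Ndufa8, an accessory subunit on the intermembrane side, had 99.8 and 100.3 FPKM in Vil-CREPT-KO, against 72.1 and 94.8 FPKM in WT. Of its WT values only that of WT 1 stood well apart (log2 fold change 0.27 ± 0.19, SE).

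At the other end of complex I were accessory subunits. Ndufa2 had 62.1 and 54.1 FPKM in Vil-CREPT-KO, against 66.3 and 86.0 FPKM in WT. The groups did not overlap, though WT 1 lay close to Vil-CREPT-KO 1, and the log2 fold change of -0.38 ± 0.19 (SE) had an adjusted p of 0.343 by limma. Ndufa2 overlaps Tmco6, and the strand of the counting is not given in the sources used here. Ndufa6, the accessory subunit of the LYR family whose upstream stretch is shown above, had 124 and 127 FPKM in Vil-CREPT-KO, compared with 153 and 165 FPKM in WT. Both groups were tight, and the log2 fold change of -0.34 ± 0.16 (SE) was larger in size than the spread within either group, with an adjusted p of 0.305 by limma. Its value stayed between -0.45 and -0.28 under all the alternatives tried, none of which called it. Ndufb2, of the membrane arm, had 51.4 and 48.4 FPKM in Vil-CREPT-KO, with 52.7 and 74.4 FPKM in WT, so that its distance rested on WT 2 (log2 fold change -0.32 ± 0.21, SE). Ndufs3, a core subunit of the hydrophilic arm, had 84.8 and 84.3 FPKM in Vil-CREPT-KO, against 84.9 and 87.3 FPKM in WT, values that were nearly equal in all libraries.

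The 7 nuclear core subunits of complex I, which carry its cofactors and are shared with bacteria, summed to 589 and 565 FPKM in Vil-CREPT-KO and to 455 and 567 FPKM in WT. Their median log2 fold change was 0.16, beside 0.06 for all tested genes. Of the 7, 0 were called, where 0.387% of all tested genes were called higher and 1.69% lower. WT 2 lay within the range of the Vil-CREPT-KO libraries. Ndufs7, one of them, had 94.3 and 84.8 FPKM in Vil-CREPT-KO, compared with 73.7 and 95.4 FPKM in WT.

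Complex II is the succinate dehydrogenase of the tricarboxylic acid cycle and the only complex encoded wholly in the nucleus. Sdha, the flavoprotein that oxidises succinate, had 119 and 144 FPKM in Vil-CREPT-KO, with 124 and 143 FPKM in WT. Sdhb, the iron-sulfur subunit, had 141 and 178 FPKM in Vil-CREPT-KO, against 150 and 187 FPKM in WT. For both genes the lowest value was that of Vil-CREPT-KO 1 and the groups overlapped. The membrane anchor Sdhc had 185 and 194 FPKM in Vil-CREPT-KO, compared with 163 and 188 FPKM in WT. The membrane anchor Sdhd had 154 and 174 FPKM in Vil-CREPT-KO, with 125 and 163 FPKM in WT. The log2 fold changes of the 4 genes lay between -0.08 ± 0.21 (Sdhb) and 0.19 ± 0.20 (Sdhd, both SE), and Vil-CREPT-KO 2 was above Vil-CREPT-KO 1 for each.

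In complex III the groups overlapped for each of the 8 members and the median log2 fold change was -0.02. Uqcrb, a ubiquinone-binding subunit and the most abundant of the complex, had 467 and 441 FPKM in Vil-CREPT-KO, against 435 and 514 FPKM in WT. The Rieske iron-sulfur protein Uqcrfs1 had 112 and 119 FPKM in Vil-CREPT-KO, compared with 94.2 and 113 FPKM in WT. Its log2 fold change of 0.16 ± 0.17 (SE) was the highest of the complex and no larger than its error. The small subunit Uqcr11 had 196 and 179 FPKM in Vil-CREPT-KO, with 190 and 256 FPKM in WT. WT 2 alone stood high, and the log2 fold change of -0.23 ± 0.21 (SE) was the lowest of the complex.

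Complex IV was the complex with the highest median log2 fold change, 0.23, with 14 of its 15 members above 0 and 5 higher without overlap (33.3%, close to the 31.9% of all tested genes). The excess of complex IV over the other complexes was not tested. Its members summed to 1.01% and 0.937% of the FPKM in Vil-CREPT-KO and to 0.786% and 0.944% in WT, so that the lower WT value came from WT 1. The median log2 fold change of complex IV was 0.07 without WT 1, 0.37 without WT 2 and 0.12 after rescaling without the mucous cell genes. Left without the low isoforms Cox7a1, Cox6b2 and Ndufa4l2, the other 12 members had a median of 0.18 and ran between -0.01 and 0.40.

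Among the abundant members of complex IV, Cox6a1 had 903 and 710 FPKM in Vil-CREPT-KO, against 697 and 761 FPKM in WT, the highest mean of all 79. Its groups overlapped and its log2 fold change was 0.14 ± 0.24 (SE). Cox4i1, the broadly expressed form of the largest nuclear subunit, had 608 and 543 FPKM in Vil-CREPT-KO, compared with 421 and 541 FPKM in WT. Vil-CREPT-KO 2 and WT 2 were almost equal (log2 fold change 0.27 ± 0.23, SE). Ndufa4, first assigned to complex I and now counted as a subunit of complex IV, had 402 and 326 FPKM in Vil-CREPT-KO, with 241 and 313 FPKM in WT. The groups did not overlap, and the log2 fold change of 0.40 ± 0.23 (SE) had an adjusted p of 0.392 by limma. Cox6c, a small membrane subunit, had 485 and 386 FPKM in Vil-CREPT-KO, against 315 and 360 FPKM in WT, also without overlap (log2 fold change 0.36 ± 0.22, SE). Cox5a, a subunit on the matrix side, had 362 and 358 FPKM in Vil-CREPT-KO, compared with 287 and 328 FPKM in WT (log2 fold change 0.23 ± 0.18, SE).

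Several subunits of complex IV have a broad and a tissue-restricted form. The muscle form Cox7a1, which replaces Cox7a2 in heart and skeletal muscle and is also found in brown fat, had 38.6 and 21.5 FPKM in Vil-CREPT-KO, against 9.25 and 18.0 FPKM in WT. Both Vil-CREPT-KO libraries were above both WT libraries, but Vil-CREPT-KO 2 and WT 2 lay closer to each other than to the other library of their group. The means were 30.0 ± 12.1 FPKM in Vil-CREPT-KO and 13.6 ± 6.19 FPKM in WT (SD, n = 2 each), a ratio of 2.20. The log2 fold change of Cox7a1 was 1.10 ± 0.40 (SE, 95% interval 0.07 to 2.12), with an adjusted p of 0.227 by limma. It was the only member with an absolute log2 fold change above 1. Cox7a1 ran between 0.65 without WT 1 and 1.54 without WT 2, and passed the call only without Vil-CREPT-KO 2 (log2 fold change 1.50, adjusted p = 0.0392 by limma), a fit that takes the lone Vil-CREPT-KO library to vary as the WT libraries do. In that fit 900 genes were called in all, against 241 with the 4 libraries.

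The broad form Cox7a2 had 205 and 210 FPKM in Vil-CREPT-KO, with 168 and 208 FPKM in WT. Cox7a1 thus made up 15.9% and 9.27% of the 2 forms in Vil-CREPT-KO, against 5.23% and 7.96% in WT, and Cox7a2 was the main form in every library. The related Cox7a2l, which has a role in joining complexes III and IV, had 113 and 123 FPKM in Vil-CREPT-KO, compared with 105 and 135 FPKM in WT. It had the lowest log2 fold change of complex IV, -0.01 ± 0.19 (SE). The 120 bases before the start of Cox7a1 (chr7:30184051-30184170, plus strand, GRCm38.p6) are shown as the member set apart by level and difference. They hold none of the NRF1, ETS and TATAAA letters, and capitals mark the letters CCAAT, read here on the other strand, which stood on either strand in 29 members (43.9%) and in 39.5% of protein-coding genes:
Cox7a1: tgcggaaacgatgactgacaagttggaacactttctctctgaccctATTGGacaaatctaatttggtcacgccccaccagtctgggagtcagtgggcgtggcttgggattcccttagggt

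Markers of other cells of the intestinal wall were read beside Cox7a1. Skeletal and heart muscle markers were low, and 9 of them summed to 10.8 and 9.94 FPKM in Vil-CREPT-KO and to 12.4 and 19.7 FPKM in WT, with Myh7 at or under 0.09 FPKM and Mb at or under 0.40 FPKM in all libraries. Smooth muscle markers summed to 950 and 616 FPKM in Vil-CREPT-KO and to 685 and 1050 FPKM in WT. Both muscle sums were highest in WT 2, where Cox7a1 was not. Within the smooth muscle list the genes were split. Des (186 and 107 FPKM in Vil-CREPT-KO, 95.6 and 141 FPKM in WT) and Actg2 were highest in Vil-CREPT-KO 1 and lowest in WT 1, as Cox7a1 was. Acta2, Myh11, Tagln, Cnn1 and Smtn were highest in WT 2. Both Vil-CREPT-KO libraries were above both WT libraries for 4 of 4 endothelial, 6 of 7 leukocyte, 2 of 6 fibroblast and 1 of 6 adipocyte markers, which held for 31.9% of all tested genes. No marker of these lists was called, where 0.387% of all tested genes were called higher and 1.69% lower. Endothelial markers summed to 24.4 and 14.9 FPKM in Vil-CREPT-KO and to 7.72 and 13.3 FPKM in WT. Leukocyte markers summed to 165 and 147 FPKM in Vil-CREPT-KO and to 117 and 124 FPKM in WT. Fibroblast markers summed to 384 and 197 FPKM in Vil-CREPT-KO and to 135 and 235 FPKM in WT. Adipocyte markers summed to 189 and 122 FPKM in Vil-CREPT-KO and to 108 and 110 FPKM in WT. The endothelial, leukocyte and adipocyte sums had the order of the libraries in Cox7a1, and the fibroblast sum did not. Single markers differed from their sums. Among fibroblast markers, Col1a1 (45.0 and 21.3 FPKM in Vil-CREPT-KO, 8.13 and 17.2 FPKM in WT) and Pdgfra had the order of Cox7a1. Col1a2, Col3a1, Dcn and Lum did not. Among leukocyte markers, Lyz2 (113 and 104 FPKM in Vil-CREPT-KO, 82.6 and 92.7 FPKM in WT), Ptprc and Itgam had the order of Cox7a1. Cd68, Csf1r and Cd79a were lowest in WT 2, and Cd3e was highest in WT 1 (4.09 FPKM). Among adipocyte markers, Fabp4 had the order of Cox7a1, whereas Cidec was lowest in Vil-CREPT-KO 1 (67.4 FPKM). Ucp1, which defines brown fat, was at or under 0.03 FPKM, while Adipoq had 4.55 FPKM in Vil-CREPT-KO 1 and between 0.14 and 0.61 FPKM elsewhere. Plin1 and Lep were at or under 0.5 and 0.62 FPKM in all libraries. The part of these cell types in the level of Cox7a1 was not tested.

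**Figure D4:**
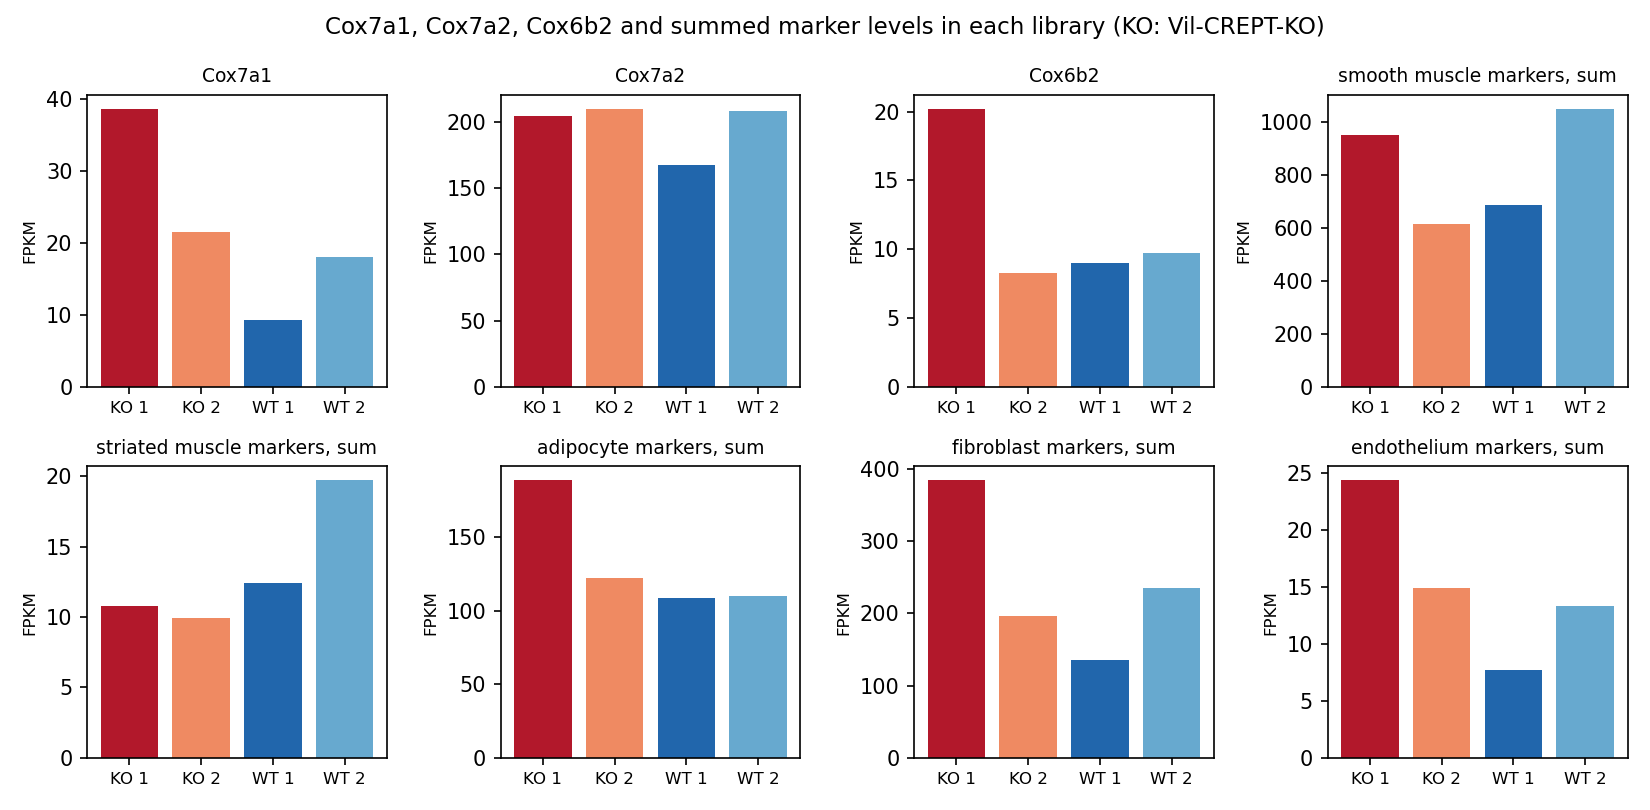
FPKM of Cox7a1, of its broad form Cox7a2 and of Cox6b2, and summed FPKM of 5 marker lists, in each library (KO: Vil-CREPT-KO; bars start at 0, 1 library each). Cox7a1 is highest in KO 1 (38.6 FPKM) and lowest in WT 1 (9.25 FPKM), the same order as the endothelial and adipocyte sums plotted. Within the adipocyte sum, Fabp4 has this order but Cidec is lowest in KO 1. Both muscle sums are highest in WT 2.

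Cox6b2, the testis form, had 20.2 and 8.29 FPKM in Vil-CREPT-KO, with 9.02 and 9.74 FPKM in WT. Only Vil-CREPT-KO 1 stood high, the groups overlapped, and the log2 fold change was 0.44 ± 0.40 (SE). The sign of Cox6b2 turned without Vil-CREPT-KO 1 (-0.16), and it passed the call without Vil-CREPT-KO 2 (log2 fold change 1.03, adjusted p = 0.0258 by limma). Its broad form Cox6b1 had 865 and 773 FPKM in Vil-CREPT-KO, against 627 and 774 FPKM in WT, so that Cox6b2 made up between 1.06% and 2.28% of the 2 forms. Ndufa4l2, a relative of Ndufa4 known to be induced by low oxygen, was the member just inside the level limit, with 1.99 and 1.46 FPKM in Vil-CREPT-KO, compared with 0.46 and 1.65 FPKM in WT. It overlaps Shmt2. Cox4i2, the form of lung and low oxygen, fell just outside the limit with a mean of 0.99 FPKM and had 1.72 and 0.48 FPKM in Vil-CREPT-KO, with 0.47 and 1.29 FPKM in WT. The muscle forms Cox6a2 and Cox8b were also outside, at or under 0.09 and 0.47 FPKM in all libraries. Cox8a, the broad form of its subunit, had 696 and 602 FPKM in Vil-CREPT-KO, against 568 and 711 FPKM in WT. Cox7b had 173 and 192 FPKM in Vil-CREPT-KO, compared with 141 and 176 FPKM in WT.

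In complex V, 14 of 17 members had a log2 fold change above 0, with a median of 0.10. That median was -0.01 after rescaling without the mucous cell genes, -0.04 without WT 1 and 0.27 without WT 2. Without overlap, 3 members stood higher (17.6%, against 31.9% of all tested genes) and 1 lower (5.88%, against 22.1%). Atp5j, coupling factor 6 of the peripheral stalk, had 356 and 309 FPKM in Vil-CREPT-KO, with 250 and 289 FPKM in WT. The groups did not overlap, the log2 fold change of 0.30 ± 0.19 (SE) was the highest of the complex, and the adjusted p was 0.432 by limma. Atp5j overlaps Gabpa. Atp5k, subunit e of the membrane part, had 156 and 154 FPKM in Vil-CREPT-KO, against 165 and 201 FPKM in WT. It was the lowest of complex V (log2 fold change -0.23 ± 0.18, SE), and WT 1 lay near the Vil-CREPT-KO libraries. Atp5d, the delta subunit of the central stalk, had 453 and 424 FPKM in Vil-CREPT-KO, compared with 337 and 412 FPKM in WT, and Atp5pb, subunit b of the peripheral stalk, had 224 and 232 FPKM in Vil-CREPT-KO, with 192 and 220 FPKM in WT. In both genes the distance between Vil-CREPT-KO and WT 2 was smaller than that between the WT libraries.

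The ring of c subunits in complex V is made from 3 genes that encode the same mature protein. Atp5g1 had 182 and 181 FPKM in Vil-CREPT-KO, against 138 and 183 FPKM in WT. Atp5g2 had 188 and 185 FPKM in Vil-CREPT-KO, compared with 175 and 224 FPKM in WT. Atp5g3 had 395 and 464 FPKM in Vil-CREPT-KO, with 363 and 440 FPKM in WT. Atp5g3 was the main source in every library, with 51.7% and 55.9% of the sum in Vil-CREPT-KO, against 53.7% and 52.0% in WT, and the shares of the other 2 lay between 20.4% and 26.5%. None of the 3 differed between the groups by more than its error.

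Genes that build, feed or supply the complexes were read from lists beside the members. Over all tested genes 0.387% were called higher and 1.69% lower, so lists of these sizes would hold few calls at those shares. Of 51 assembly factors tested, 0 were called and the median log2 fold change was 0.02. Cox17, the copper chaperone of complex IV, had 123 and 97.5 FPKM in Vil-CREPT-KO, compared with 114 and 101 FPKM in WT. Cox20, which assists the insertion of a mitochondrial subunit of complex IV, had 65.95 and 57.95 FPKM in Vil-CREPT-KO, with 65.0 and 81.1 FPKM in WT, and in both genes the groups overlapped. Of 18 electron carriers and their makers, 1 was called. Coq4, needed for ubiquinone synthesis, had 1.99 and 2.33 FPKM in Vil-CREPT-KO, against 7.78 and 8.87 FPKM in WT. Both groups were tight and Coq4 stood lower in Vil-CREPT-KO (log2 fold change -1.56 ± 0.15, SE, adjusted p = 0.0187 by limma), while the median of its list was -0.02. For Coq4 too, segment and genotype cannot be told apart.

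Of 19 enzymes of the tricarboxylic acid cycle, 0 were called and the median was -0.02. Mdh2, mitochondrial malate dehydrogenase, had 471 and 708 FPKM in Vil-CREPT-KO, against 757 and 850 FPKM in WT, lower without overlap (log2 fold change -0.47 ± 0.28, SE). Citrate synthase, Cs, had 405 and 509 FPKM in Vil-CREPT-KO, compared with 466 and 456 FPKM in WT, so the groups overlapped. Of 18 regulators of mitochondrial biogenesis, 0 were called and the median was 0.10. Esrra, a nuclear receptor that acts on oxidative genes, had 75.6 and 90.1 FPKM in Vil-CREPT-KO, with 63.0 and 67.2 FPKM in WT, without overlap (log2 fold change 0.34 ± 0.16, SE, adjusted p = 0.322 by limma). Yy1, a transcription factor with many mitochondrial targets, had 24.7 and 21.3 FPKM in Vil-CREPT-KO, against 20.1 and 18.0 FPKM in WT. Of 29 carriers, pores and import proteins, 0 were called and the median was 0.11. Slc25a5, an exchanger of ADP and ATP, had 754 and 954 FPKM in Vil-CREPT-KO, compared with 858 and 957 FPKM in WT. Slc25a3, the phosphate carrier, had 618 and 684 FPKM in Vil-CREPT-KO, with 556 and 578 FPKM in WT, without overlap (log2 fold change 0.20 ± 0.20, SE). Of 78 mitochondrial ribosomal proteins, 0 were called and the median was -0.01. Their summed level was 2278 and 2027 FPKM in Vil-CREPT-KO, against 1990 and 2446 FPKM in WT, with WT 1 lowest and WT 2 highest as in many of the members. Mrpl52, of the large subunit, had 128 and 88.6 FPKM in Vil-CREPT-KO, compared with 106 and 133 FPKM in WT, and Mrps21, of the small subunit, had 93.8 and 81.8 FPKM in Vil-CREPT-KO, with 80.8 and 106 FPKM in WT.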

How the data were processed

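The authors deposited 1 table of FPKM values for the 4 libraries, made on a BGISEQ instrument from Trizol total RNA. Per the study's methods, reads were mapped to transcripts of GRCm38.p6 with Bowtie2 and quantified with RSEM. The submitters' notes also name HISAT and mm10, without versions. Low FPKM values were spaced as for between 17500000 and 18400000 fragments per library, but only 46.0% to 59.2% of these low values came within 0.1 of a whole fragment, so reads were not recovered and no count model was run.

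NCBI gene IDs gave RefSeq symbols for 17473 of 17505 genes (32 unmatched). The 11621 genes that averaged 1 FPKM or more were compared as log2(FPKM + 1), with a pseudocount of 1, by limma 3.58.1 in R 4.3.3 with a variance trend, two-sided, with Benjamini-Hochberg adjustment over all tested genes. The scale understates the change of low genes. The fit had 2 residual degrees of freedom, to which moderation added 3.08. It was also run on simulated data, with planted changes larger than those of the members and with no shift shared by a library. That run therefore does not show how well differences of the members' size would be found. An exact permutation test of 2 against 2 cannot go below 0.333. RSEM divides reads shared by similar genes by estimate, and 25 members overlap another gene.

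The members and lists were chosen with earlier results of these data known. Named are members past 1 log2 unit, the most abundant, highest and lowest member of each complex, all of complex II and the isoform sets, and the called (up to 3) or 2 most abundant genes of each list. The result of 1 member under this rule is not reported here. Other members without overlap and Ndufa11 and Atp5a1 were named after their values were seen. Alternatives were pseudocounts of 0.1 and 5, no filter, a filter at 5 FPKM, quantile normalization, median centring, rescaling without the mucous genes, no trend, robust moderation, adjusted p alone, a replicate block, each library left out, and, chosen after seeing the data, centring on the members.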

Additional observations from a re-analysis of the deposited data

How the results depend on the processing

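No member was called in 15 of 16 alternatives. Leaving out each library in turn gave 0 to 2 members called higher and 0 lower, and the 2 were Cox7a1 and Cox6b2 without Vil-CREPT-KO 2. The median log2 fold change over members ranged from -0.07 to 0.23 with a library left out, and that of complex IV from 0.072 without WT 1 to 0.369 without WT 2. Of 38 named members, 23 kept their sign in all alternatives and 15 did not. The count over all genes, 241, was 141 with a pseudocount of 5, 78 with no filter and 517 when centred on the members (chosen after seeing the data, 0 members called). It was 419 without Vil-CREPT-KO 1, 900 without Vil-CREPT-KO 2, 4 without WT 1 and 6 without WT 2. The cause was not tested. With the replicate number as a block, 122 genes and 0 members were called, and the members' median log2 fold change was 0.07. The libraries share only a number, and deviations of same-numbered libraries correlated at -0.264 over all tested genes and at -0.143 over the members. With 2 libraries a group, the median standard error of a member was 0.20, and depth could not be used to give counting intervals.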
